A study of Mus musculus with 8 samples.

Results

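Collagen chain genes were taken as every gene whose name in the scanner files has the form Col, a type number, a and a chain number, read by non-control probes. There were 40 such genes, read by 59 probes, among 36518 genes named in the files. By class they were 11 fibrillar, 9 basement membrane, 4 beaded filament, 9 fibril-associated, 3 short-chain and 4 transmembrane collagens. Of the 40, 34 passed a filter on low signal (both arrays of 1 or more groups well above background) and were tested. The series held laser-captured spinal neural tube and paraxial tissue of mouse embryos at E10.5 (strain C57BL/6), hybridised to 8 1-colour Agilent arrays. Paraxial tissue is the mesoderm beside the neural tube, which forms somites and later vertebrae and muscle. The 4 groups were both tissues of 2 wild-type embryos and both tissues of 2 embryos labelled fl/fl; cre/o with conditional loss of Geminin, a protein that restrains replication licensing. Every embryo gave both tissues, with 1 array per tissue. Which promoter drives cre, and which exons are lost, the labels do not say. The questions the design allows were how the tissues differ within each genotype, how the genotypes differ within each tissue, and whether the genotype difference depends on the tissue.

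Collagens are secreted or membrane-bound proteins whose chains wind around each other into a rope-like helix. Fibrillar collagens assemble into the fibres of mesenchyme and later of bone, skin and cartilage, while basement membrane collagens form sheets under epithelia and around vessels. The chains are modified and folded in the endoplasmic reticulum, then trimmed and crosslinked outside the cell. In the embryo, fibrillar collagens are known as products of mesenchyme such as the sclerotome, and the neural tube is an epithelium that rests on a basement membrane.

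The helix needs a glycine at a fixed spacing, so that a stretch of helix is written as a glycine codon (GGN) every 9 bases. At least 5 such codons in succession were found in 3 of the 59 member probes (5.08%) and in 17 of 55622 other probes (0.0306%). These 3 probes are shown because they let the repeat that defines the family be read directly, with the glycine codons in capitals. Each is the sense strand of the gene, 5′ to 3′, on the build named in the files (mm9). They lie at chr4:47283786-47283845 for Col15a1, chr4:129756457-129756516 for Col16a1 and chr3:130270497-130270556 for Col25a1, all on the plus strand.
Col15a1: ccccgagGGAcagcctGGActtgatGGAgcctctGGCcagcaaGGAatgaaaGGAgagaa
Col16a1: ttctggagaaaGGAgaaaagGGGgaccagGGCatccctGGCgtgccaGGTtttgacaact
Col25a1: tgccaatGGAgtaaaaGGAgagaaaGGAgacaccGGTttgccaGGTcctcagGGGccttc
The probes of Col15a1 and Col16a1 gave the values of their genes, and the Col25a1 probe was a second reading of its gene.

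Promoters of 32 of the 40 genes were in the RefSeq table (GRCm38.p6), with 35 start sites. Col1a1, Col2a1, Col4a3, Col5a2, Col9a3, Col12a1, Col14a1 and Col22a1 had no entry. The 250 bases before each start were searched on both strands for 3 short promoter motifs, none of which contains another. These were the letters TATAAA of the TATA box, then CCAAT, a motif bound by the factor NF-Y, and finally GGGCGG, a motif bound by factors of the Sp family. TATAAA was in 5 of 35 member windows (14.3%) against 12.4% of all 32851 windows. CCAAT was in 12 of 35 (34.3%) against 33.8%, and GGGCGG in 20 of 35 (57.1%) against 32.7%. The 120 bases before the start are shown for 5 genes that were lower in neural tube and for Col4a5, which was higher, with matches in capitals. Each is written on the strand of its gene.
Col1a2 (chr6:4505498-4505617, plus strand): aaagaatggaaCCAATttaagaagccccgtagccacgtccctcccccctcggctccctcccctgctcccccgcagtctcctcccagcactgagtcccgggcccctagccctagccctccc
Col3a1 (chr1:45311418-45311537, plus strand): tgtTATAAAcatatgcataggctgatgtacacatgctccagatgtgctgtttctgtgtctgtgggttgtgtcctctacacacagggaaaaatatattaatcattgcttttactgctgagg
Col6a1 (chr10:76726045-76726164, minus strand): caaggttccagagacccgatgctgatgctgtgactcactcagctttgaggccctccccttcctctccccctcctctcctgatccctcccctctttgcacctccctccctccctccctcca
Col23a1 (chr11:51289800-51289919, plus strand): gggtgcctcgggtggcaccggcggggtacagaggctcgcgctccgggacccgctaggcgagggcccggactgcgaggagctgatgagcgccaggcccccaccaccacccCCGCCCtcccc
Col25a1 (chr3:130180725-130180844, plus strand): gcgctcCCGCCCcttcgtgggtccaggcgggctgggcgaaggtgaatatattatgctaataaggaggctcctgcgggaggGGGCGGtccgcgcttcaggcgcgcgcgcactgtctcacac
Col4a5 (chrX:141475299-141475418, plus strand): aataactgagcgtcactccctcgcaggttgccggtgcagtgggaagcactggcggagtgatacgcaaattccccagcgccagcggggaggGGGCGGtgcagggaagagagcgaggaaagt
Among the members lower in neural tube, windows with GGGCGG made up 9 of 17, and among those not called 7 of 12. Of these 6 genes, the 120 bases of Col6a1 held none of the 3 motifs.

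The share of probes well above background ran from 71.5% to 77.9% over the arrays, and the signal's 75th percentile from 3164 to 6394. Levels are log2 signals scaled to a common 75th percentile, and levels of different probes are not set against each other. Gmnn, which encodes Geminin, was lower in mutants without overlap in both tissues, by 0.35 ± 0.25 (log2, SE) in neural tube and 0.63 ± 0.25 in paraxial tissue, and neither passed (limma adjusted p = 0.921 and 0.996). Of 13 neural progenitor markers 13 were higher in neural tube, and of 11 sclerotome markers 7 were lower, on the mean of both genotypes. All 11 sclerotome markers were measured, and 7 of them were well above background on both wild-type neural tube arrays. Precision is limited throughout by the number of arrays, 2 per group. In tissue of mixed cells, fewer cells of a type and less RNA per cell cannot be told apart.

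Collagen genes were mostly lower in neural tube than in paraxial tissue, in both genotypes. On the mean of both genotypes 18 of the 34 tested genes were lower (limma, Benjamini-Hochberg adjusted p under 0.05), where 6.00% of 28939 genes were, and 2 were higher, where 5.94% were. In wild-type embryos 10 were lower (1.69% of all genes) and 0 higher (0.774%). In mutant embryos 13 were lower (3.16%) and 0 higher (2.67%). The median log2 difference, neural tube minus paraxial tissue, was -0.78 in wild type, -0.89 in mutants and -0.92 on the mean, against 0.00, -0.03 and -0.02 over all genes. In 21 of the 34 genes the neural tube array was below the paraxial array in all 4 embryos, as it was in 17.2% of all genes. Col22a1 was the 1 member higher in neural tube in all 4. The filter keeps a gene that is bright in 1 tissue, so the 27 genes well above background on all 8 arrays were also counted. Of these, 17 were lower and 1 was higher on the mean, with a median of -1.02. Of all 25647 genes well above background on all 8 arrays, 1451 were lower and 1241 higher, with a median of -0.03.

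Of the 20 calls on the mean, 9 held under all 24 alternatives of processing and of arrays left out: Col1a1, Col1a2, Col3a1, Col27a1, Col4a1, Col6a1, Col9a1, Col23a1 and Col25a1. The number of calls rested on single arrays. Without neural tube array 1, neural tube array 2 or paraxial array 2 of the mutants, 11, 12 and 12 of the 34 were called on the mean, and without either mutant embryo 10. Within mutants, leaving out any mutant array or either mutant embryo ended most or all of the calls. Calls over all genes fell as well. The members' median there was -0.76 and -1.04 without neural tube array 1 or 2, and -0.82 and -1.07 without paraxial array 1 or 2. Without mutant embryo 1 or 2 it was -0.75 and -1.13, against -0.89 with all arrays. Within wild type, fewer were called without wild-type paraxial array 2, either mutant neural tube array or either mutant embryo. None were called without either wild-type embryo, where the median was -0.32 without embryo 1 and -1.16 without embryo 2. Calls over all genes fell under these settings too. Both tissues came from the same embryos, and without the embryo as a block 0 were called within wild type, 0 within mutants and 10 on the mean. With the embryo as a fixed block these counts were 1, 3 and 14, and with slide row as a block 7, 10 and 16, none of them higher in neural tube.

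**Figure D1:**
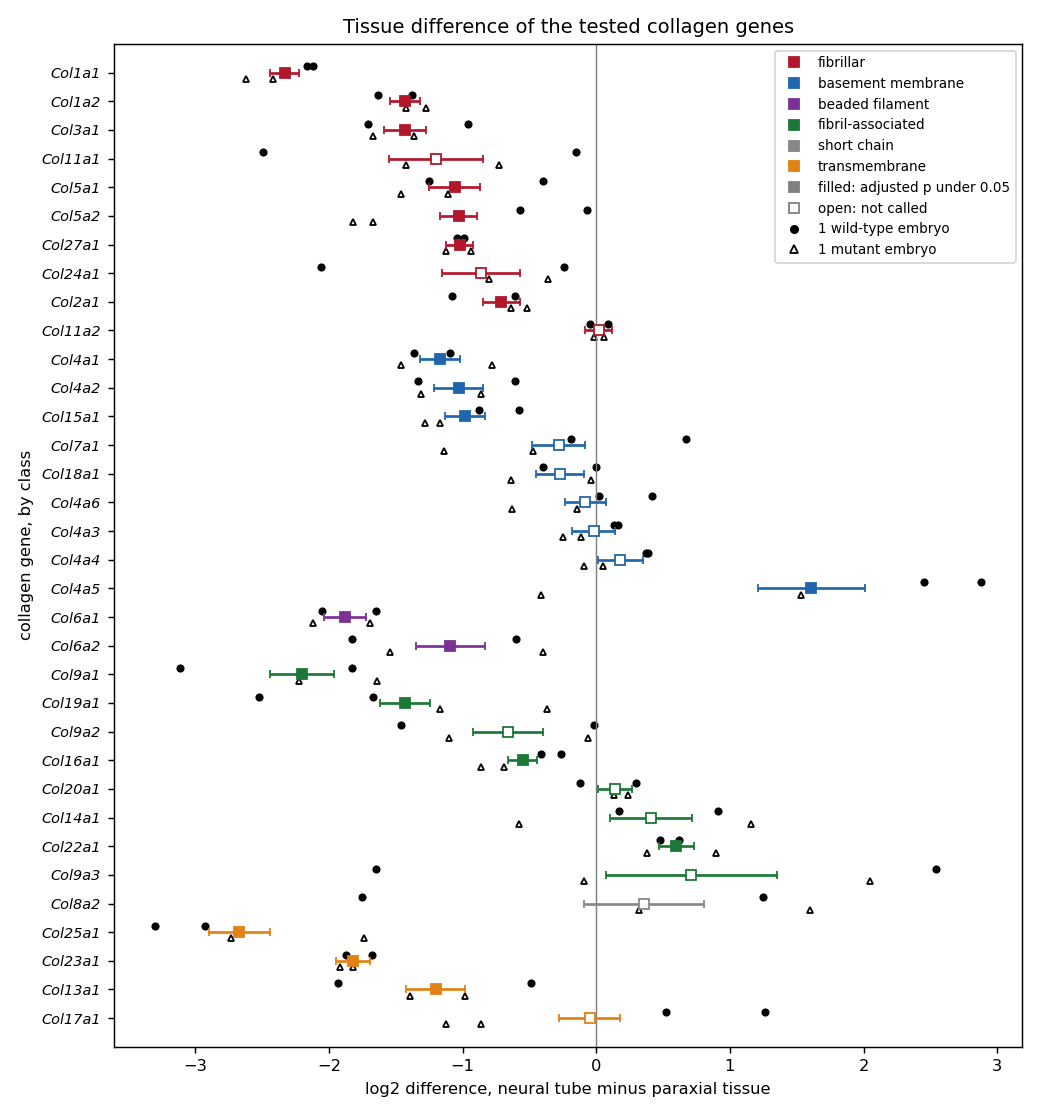
Log2 difference between neural tube and paraxial tissue for the 34 tested collagen genes, ordered by class; squares are means over both genotypes with SE (filled where adjusted p is under 0.05), and small symbols are single embryos. Squares of 18 genes lie filled to the left of 0, and those of Col4a5 and Col22a1 lie filled to the right.

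The genes called within wild type and within mutants were largely shared. Col1a1, Col1a2, Col3a1, Col27a1, Col4a1, Col6a1, Col9a1, Col23a1 and Col25a1 were called in both, which is 9 of the 10 in wild type and 9 of the 13 in mutants. Col19a1 was called in wild type alone, and Col5a1, Col5a2, Col15a1 and Col16a1 in mutants alone. For none of those 5 did the interaction test pass. Col2a1, Col4a2, Col4a5, Col6a2, Col13a1 and Col22a1 passed on the mean of both genotypes alone.

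Of the fibrillar collagens, 7 of 10 tested were lower in neural tube on the mean and 0 were higher, with a class median of -1.04. Col1a1, the major chain of type I collagen, stood at 12.04 and 12.01 in wild-type and 11.99 and 12.41 in mutant neural tube. In paraxial tissue it stood at 14.19 and 14.13 in wild type and 14.61 and 14.83 in mutants. The tissues did not overlap, and Col1a1 was lower in neural tube by 2.33 ± 0.11 (log2, SE; limma adjusted p = 0.00086), a 5.03-fold difference. Col1a2, the chain that pairs with Col1a1 in type I collagen, read 13.86, 14.27, 14.18 and 14.45 in neural tube and 15.49, 15.66, 15.60 and 15.72 in paraxial tissue, with wild-type embryos first here and in the lists that follow. It was lower by 1.43 ± 0.11 (adjusted p = 0.0018). The tissue difference of Col1a1 was the larger of the pair in 4 of 4 embryos, by 0.53, 0.74, 1.20 and 1.15.

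Col27a1, a fibrillar collagen known from developing cartilage, read 11.69, 11.66, 12.31 and 12.02 in neural tube and 12.68, 12.70, 13.25 and 13.13 in paraxial tissue. It was lower in neural tube by 1.02 ± 0.10 (limma adjusted p = 0.00274), and its tissue difference was nearly equal in the 4 embryos, from -1.12 to -0.94. Col3a1, which mixes with type I collagen in soft tissue fibres, differed by -1.43, and its 4 neural tube levels (14.34 to 15.26) lay below its 4 paraxial levels (16.06 to 16.61). Col5a1, which helps to start fibrils, differed by -1.06 and Col2a1, the main collagen of cartilage and notochord, by -0.71, both called on the mean. With slide row as a block the adjusted p of Col2a1 was 0.0540. Col11a1 and Col24a1 differed by -1.20 and -0.86 and did not pass, each with a wide spread between embryos. They were well above background on 6 and 4 of the 8 arrays, so these sizes rest in part on dim signal. Col11a2, a cartilage chain of type XI collagen, differed by 0.02 ± 0.10, with levels from 8.97 to 9.29 on all 8 arrays.

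Col5a2, the partner of Col5a1 in type V collagen, differed from the rest of its class in how it divided by genotype. It read 8.0 and 8.82 in wild-type and 7.51 and 7.46 in mutant neural tube, and 8.58 and 8.88 in wild-type and 9.33 and 9.13 in mutant paraxial tissue. In mutants the tissue difference was -1.74 ± 0.20 (limma adjusted p = 0.0117), and in wild type it was -0.32 ± 0.20 (adjusted p = 0.454). The difference between those was -1.42 ± 0.28 and did not pass over all genes (interaction, adjusted p = 0.642). Over the other scalings and background correction the mutant tissue difference ran from -1.76 to -1.01 and the interaction from -1.43 to -0.66. The genotype difference in neural tube, -0.93, ran from -0.84 to -0.31 under these. Mutants were below wild type in neural tube and above it in paraxial tissue without overlap, a pattern that 1.71% of all genes showed and 1 of the 34 members.

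**Figure D2:**
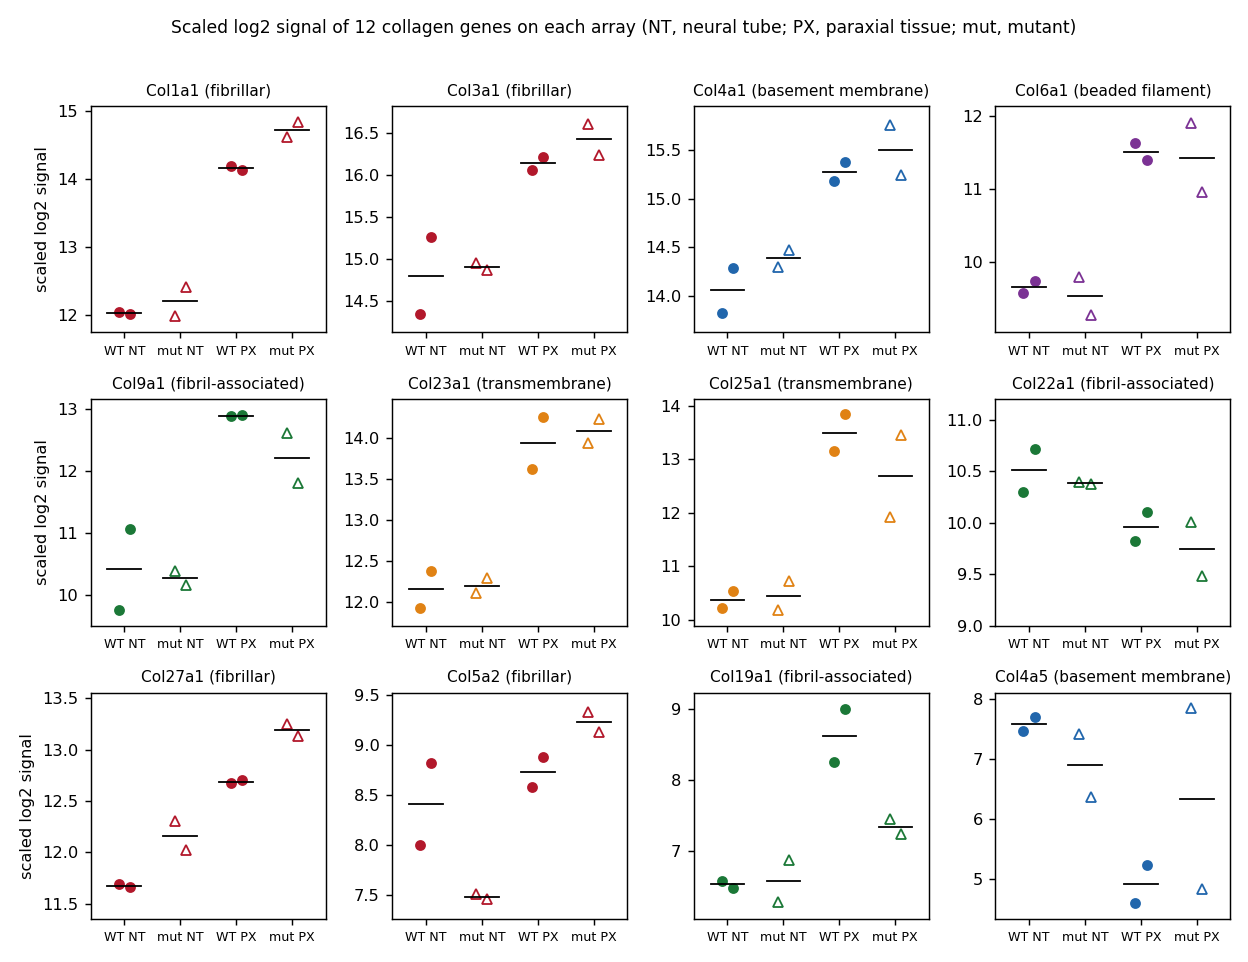
Scaled log2 signal of 12 collagen genes on each of the 8 arrays, grouped by genotype and tissue; each point is 1 array and each bar a group mean of 2. In Col1a1, Col3a1, Col4a1, Col6a1, Col9a1, Col23a1, Col25a1 and Col27a1 all paraxial arrays lie above all neural tube arrays, while Col22a1 lies the other way.

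Of the basement membrane collagens, 3 of 9 were lower in neural tube, 1 was higher, and the median was -0.27. Col4a1 and Col4a2 encode the chains of the type IV collagen found in nearly all basement membranes. Col4a1 read 13.82, 14.29, 14.30 and 14.47 in neural tube and 15.18, 15.38, 15.76 and 15.25 in paraxial tissue, without overlap. It was lower by 1.17 ± 0.15 (limma adjusted p = 0.00466). Col4a2 read 12.94, 14.04, 13.66 and 13.73 against 14.27, 14.64, 14.97 and 14.59 and was lower by 1.03 ± 0.18 (adjusted p = 0.0133). These genes lie head to head, and their RefSeq starts overlap by 22 bases. Col15a1, a basement membrane collagen of muscle and vessels, was lower by 0.98 ± 0.15 (adjusted p = 0.00952). Its other probes also read lower in neural tube, at -1.11 and -1.56.

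The other type IV chains, which replace the common ones in particular basement membranes such as that of the kidney glomerulus, were not lower. Col4a3, Col4a4 and Col4a6 differed by -0.02, 0.18 and -0.08, none past the test. Col4a5 was higher in neural tube by 1.61 ± 0.40 (limma adjusted p = 0.0440) on the mean of both genotypes. It read 7.47 and 7.69 in wild-type neural tube and 4.60 and 5.24 in wild-type paraxial tissue, where neither array was well above background, so that neural tube was at least 1.86-fold higher (adjusted p = 0.0632). In mutants it read 7.42 and 6.36 in neural tube and 7.84 and 4.83 in paraxial tissue, which overlapped. It was well above background on 4 of the 8 arrays. Its call was lost under 6 of the processing alternatives besides the one without the embryo block, and normexp background correction put its difference at 0.09 (adjusted p = 0.739). Col4a6 starts 1342 bases from Col4a5 in the opposite direction in RefSeq, and a second probe of Col4a6 read 0.72 higher in neural tube while its brightest read -0.08. Col7a1 of the anchoring fibrils and Col18a1 of vessel and epithelial basement membranes differed by -0.28 and -0.27 and did not pass.

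Of the beaded filament collagens, type VI chains that form a fine network around mesenchymal cells, both tested genes were lower in neural tube. Col6a1 read 9.57, 9.74, 9.79 and 9.27 in neural tube and 11.63, 11.40, 11.91 and 10.96 in paraxial tissue, a difference of -1.88 ± 0.16 (limma adjusted p = 0.00201) or 3.68-fold. Its tissue difference was close in wild type (-1.85) and mutants (-1.90). Col6a2 read 12.30, 12.37, 12.06 and 12.62 against 14.14, 12.97, 13.60 and 13.02, a difference of -1.09 ± 0.26 (adjusted p = 0.0369). Its difference was -1.83 and -1.54 in the embryos numbered 1 and -0.60 and -0.40 in those numbered 2. With slide row, which separates these numbers, as a block, the call of Col6a2 was lost (adjusted p = 0.0554). Col6a6 and Col28a1 were not well above background on both arrays of any group.

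The fibril-associated collagens, which sit on the surface of fibrils, went both ways: 3 of 8 were lower in neural tube, 1 was higher, and the median was -0.21. Col9a1, a type IX chain of cartilage fibrils, read 9.77, 11.07, 10.39 and 10.16 in neural tube and 12.88, 12.90, 12.61 and 11.81 in paraxial tissue. It was lower by 2.20 ± 0.24 (limma adjusted p = 0.00348), a 4.60-fold difference. Its other probe, nearer the 5′ end of the transcript, read 10.40, 9.74, 9.37 and 9.26 against 10.11, 9.62, 9.75 and 9.62, a difference of -0.08. RefSeq gives 2 start sites for this gene, and which transcripts each probe reads was not tested. Col9a2 and Col9a3, the other type IX chains, differed by -0.66 and 0.71 and did not pass, and Col9a3 was well above background on 4 of 8 arrays.

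Col19a1, known from embryonic muscle, was lower in neural tube by 1.43 ± 0.19 (limma adjusted p = 0.00571). It read 6.58 and 6.48 in wild-type and 6.28 and 6.88 in mutant neural tube, and 8.25 and 9.0 in wild-type and 7.45 and 7.24 in mutant paraxial tissue. In neural tube it was well above background on 1 of 2 wild-type and 0 of 2 mutant arrays, so the size rests in part on dim signal. Over the other scalings and background correction the difference ran from -1.60 to -0.71. Col16a1 was lower by 0.55 ± 0.11 (adjusted p = 0.0200) and its other probes by 0.75 and 0.98, and with the embryo as a fixed block its call was lost (adjusted p = 0.0625). Col22a1, known from muscle-tendon junctions, was higher in neural tube by 0.60 ± 0.13 (adjusted p = 0.0312), reading 10.30, 10.72, 10.40 and 10.38 against 9.82, 10.10, 10.01 and 9.48. With slide row as a block its adjusted p was 0.0728. Col14a1 and Col20a1 differed by 0.41 and 0.14 without passing, and in each the other probe had the opposite sign (-0.52 and -1.13).

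Of the transmembrane collagens, whose chains are anchored in the cell membrane, 3 of 4 were lower in neural tube, with a median of -1.51. Col25a1, which is expressed in developing muscle and needed for its innervation, had the largest difference among the members, -2.67 ± 0.23 (limma adjusted p = 0.0021), or 6.39-fold. It read 10.22, 10.54, 10.18 and 10.73 in neural tube and 13.15, 13.84, 11.92 and 13.46 in paraxial tissue. The size depended on the probe, since other kept probes of Col25a1 read -1.42 and -3.25. The probe at -3.25 was well above background on 3 arrays, all of paraxial tissue, so its size rests on dim neural tube signal. Col23a1 read 11.93, 12.38, 12.11 and 12.29 against 13.62, 14.25, 13.93 and 14.22, a difference of -1.82 ± 0.13 (adjusted p = 0.0018), with other probes at -1.61 and -0.73. Col13a1, a collagen of cell contacts and the neuromuscular junction, was lower by 1.20 ± 0.22 (adjusted p = 0.0171), a call lost with the embryo as a fixed block (adjusted p = 0.0742). Col17a1, the hemidesmosome collagen of basal epithelium, was well above background on 3 arrays, all of wild type, where it differed by 0.89. No mutant array read it well above background, so no mutant difference is given.

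Of the short-chain collagens, Col8a2 passed the filter and differed by 0.36 ± 0.45 on the mean. Col8a1 and Col10a1, the collagen of hypertrophic cartilage, were not well above background on any array. Col5a3 was well above background on 2 arrays, 1 of wild-type and 1 of mutant neural tube, and on no paraxial array. Col12a1 was well above background on 1 wild-type neural tube array and 1 mutant paraxial array. Neither gene was tested.

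**Figure D3:**
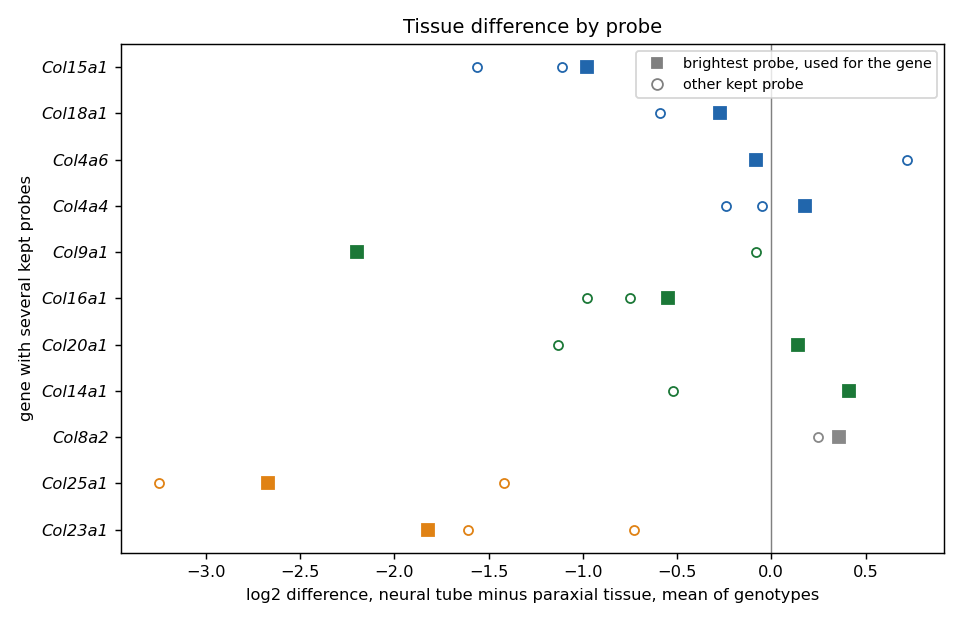
Log2 difference between neural tube and paraxial tissue, mean of both genotypes, for each kept probe of the 11 collagen genes with several; filled squares are the brightest probes used for the genes and open circles the other probes. All probes of Col15a1, Col18a1, Col16a1, Col25a1 and Col23a1 lie below 0, while those of Col9a1 lie at -2.20 and -0.08 and those of Col4a4, Col4a6, Col14a1 and Col20a1 lie on both sides.

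Genes that make, trim and bind collagen showed the same direction in most of their classes. Of 23 measured genes of folding and modification in the endoplasmic reticulum, 9 were lower in neural tube and 0 higher on the mean of both genotypes (median -0.29). Crtap, a subunit of the prolyl 3-hydroxylase complex, was lower by 1.30 ± 0.10 (limma adjusted p = 0.0018) and Fkbp10, a collagen chaperone, differed by -1.68 ± 0.20 (adjusted p = 0.00411). Of 14 genes of processing and crosslinking, 6 were lower and 0 higher (median -0.49). Pcolce, which enhances procollagen cleavage, was lower by 2.59 ± 0.21 (adjusted p = 0.00189) and Lox, a crosslinking enzyme, differed by -1.84 ± 0.20 (adjusted p = 0.00364). The neural tube levels of Lox were low (7.06, 7.18, 6.45 and 6.99), so its size may rest in part on dim signal. Of 8 genes of degradation and its inhibitors, 6 were lower and 0 higher (median -1.09), led by the matrix metalloproteinase Mmp2 at -2.41.

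Of 24 measured fibril partners 12 were lower and 0 higher (median -0.67), among them Emilin1 at -2.35 and Tnc, the matrix protein tenascin-C, at -3.56. The neural tube levels of Tnc were low (5.11, 7.53, 6.49 and 7.79), so its size may rest in part on dim signal. Of 18 laminins and other basement membrane partners 8 were lower and 0 higher (median -0.65), among them the laminin chain Lamb1 at -1.51 and Nid1, which links laminin to type IV collagen, at -1.14. Collagen receptors divided: of 11, 2 were lower and 2 higher. Ddr2, a discoidin receptor for fibrillar collagen of mesenchymal cells, read 7.85, 10.05, 8.25 and 8.62 in neural tube and 11.06, 11.44, 10.98 and 11.71 in paraxial tissue, a difference of -2.60 ± 0.32 (adjusted p = 0.00475). Ddr1, its epithelial relative, read 11.28, 11.43, 11.12 and 11.37 in neural tube and 10.33, 9.85, 10.07 and 9.31 in paraxial tissue, a difference of 1.41 ± 0.19 (adjusted p = 0.00582). Adgrg1 (GPR56), an adhesion receptor that binds type III collagen, was higher in neural tube by 2.19 ± 0.28 (adjusted p = 0.00514), whereas Col3a1, which encodes that collagen, was higher in paraxial tissue. Mrc2, which takes up collagen fragments, was lower by 1.21 ± 0.12 (adjusted p = 0.00299).

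Both fibrillar collagens and markers of mesenchyme were lower in neural tube, with a spread between arrays. The mean log2 level of the 10 fibrillar genes, relative to all arrays, was -0.97 and -0.22 in the wild-type and -0.55 and -0.47 in the mutant neural tube arrays. The same mean of the 11 sclerotome markers was -1.94 and -0.13, then -1.17 and -0.85. On the paraxial arrays the lists ran opposite ways between genotypes, with fibrillar means of 0.43 and 0.47 in wild type and 0.66 and 0.65 in mutants, and sclerotome means of 1.16 and 1.32, then 0.84 and 0.77. Wild-type neural tube array 2 was thus the highest of the neural tube arrays in both lists. Summed sclerotome signal ran from 17509 to 26540 in wild-type and from 17120 to 21204 in mutant neural tube, and in paraxial tissue from 56492 to 65110 and from 49883 to 50834. Other lists were lower in neural tube as well, with 8 of 11 myotome, 5 of 6 mural, 5 of 11 endothelial, 4 of 7 erythroid, 3 of 6 neural crest, 3 of 9 surface ectoderm, 2 of 7 mesonephros and gut and 1 of 7 macrophage markers called lower on the mean. In the myotome list 1 marker was called higher, as were 4 of 9 neuron and 4 of 6 floor plate and notochord markers. The part of such RNA in the collagen levels was not tested.

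**Figure D4:**
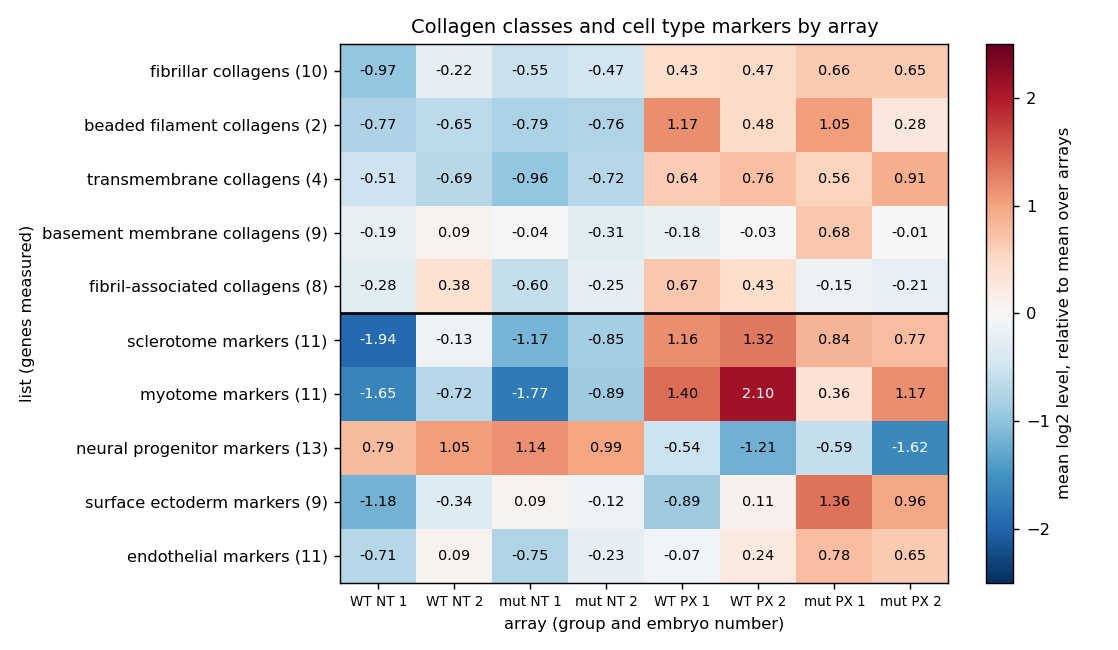
Mean log2 level of 5 collagen classes (above the line) and 5 cell type marker lists (below it) on each array, relative to the mean of each gene over the 8 arrays; colour and printed value give the same quantity (WT wild type, mut mutant, NT neural tube, PX paraxial tissue). Fibrillar, beaded filament and transmembrane collagens are below 0 on all 4 neural tube arrays and above 0 on all 4 paraxial arrays, as are sclerotome and myotome markers.

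Between genotypes no collagen gene passed in either tissue. limma called 0 of 34 in neural tube (0% of all genes) and 0 of 34 in paraxial tissue (0%), with 1 and 2 members at an unadjusted p under 0.05 against 1050 and 971 of all 28939 genes. The median difference, mutant minus wild type, was -0.10 in neural tube and 0.08 in paraxial tissue, against -0.01 and 0.03 over all genes. In neural tube the genotypes did not overlap in 2 members higher and 7 lower in mutants, where 16.5% and 15.4% of all genes did so. In paraxial tissue they did not overlap in 8 higher and 8 lower, where 22.6% and 14.7% of all genes did so. The count stayed at 0 members in either tissue without any array or embryo and under every alternative fitted. Without mutant paraxial array 1, 17 genes were called in paraxial tissue, none of them collagen genes.

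In Col27a1, Col20a1 and Col11a2 the genotypes did not overlap, in the same direction in both tissues. How many of all genes did so was not counted, so the pattern is not set apart from theirs. Col27a1 was higher in mutants by 0.49 ± 0.23 (log2, SE; limma adjusted p = 0.921) in neural tube and 0.50 ± 0.23 (adjusted p = 0.996) in paraxial tissue. Col20a1, a fibril-associated collagen, differed by -0.67 ± 0.29 and -0.76 ± 0.29 (adjusted p = 0.921 and 0.996), although its other probe read -0.05 and -1.0. Col11a2 differed by -0.17 in both, with its sign turned under another scaling or background correction in each tissue (up to 0.04 and 0.02).

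In paraxial tissue the classes lay to different sides of 0. Of 9 basement membrane collagens 8 (7 with quantile scaling) lay higher in mutants (median 0.49), with Col7a1 at 0.79, Col18a1 at 0.56 and Col15a1 at 0.49, none past the test. The basement membrane class mean was 0.68 on mutant paraxial array 1 and -0.01 on array 2, against -0.18 and -0.03 in wild type, so array 1 was the one apart. Laminins and other partners of the basement membrane lay higher in 15 of 18 (16 with normexp background correction; median 0.21). Of 8 fibril-associated collagens 7 lay lower in mutants, with a median of -0.65, and in neural tube 7 of 8 also lay lower, with a median of -0.31. In paraxial tissue they included Col19a1 at -1.28 ± 0.43 (adjusted p = 0.996), Col20a1 at -0.76 and Col9a1 at -0.68. Over the other scalings and background correction the paraxial signs of the class held. The sizes of Col19a1, Col20a1 and Col9a1 fell to -0.33, -0.5 and -0.58 at the least. The other Col9a1 probe read -0.18. In neural tube the sign of Col16a1 turned (up to 0.01). Col9a3 was not well above background in mutant paraxial tissue and read lower there than in wild type, where 1 of 2 arrays measured it (adjusted p = 0.996). Over the other scalings and background correction the paraxial difference of Col9a3 ran from -1.9 to -0.25, so no fold is given. Fibrillar collagens had a median of 0.19, with 7 of 10 higher (6 to 9 over the other scalings and background correction), and Col1a1 stood at 0.56 ± 0.24 (adjusted p = 0.996) with both mutants above both wild types.

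Several marker lists of other cell types also lay mostly to 1 side of 0 in paraxial tissue, mutant minus wild type, but not all did. Neural crest markers lay higher in 3 of 6 (median -0.04) and macrophage markers in 5 of 7 (median 0.16). Surface ectoderm markers lay higher in 9 of 9 (8 with quantile or cyclic loess scaling; median 1.74), and their mean level relative to all arrays was -0.89 and 0.11 in wild type and 1.36 and 0.96 in mutants. Endothelial markers lay higher in 11 of 11 (median 0.63), summing to 78642 to 104023 in wild type and 126952 to 141314 in mutants. Myotome markers lay lower in 10 of 11 (median -1.02), summing to 150548 to 261069 in wild type and 82175 to 148900 in mutants. Erythroid markers lay higher in 7 of 7 (median 0.76). Neuron markers lay lower in 8 of 9 (median -1.16), with a mean level of 0.61 and -0.90 in wild type and -1.23 and -1.01 in mutants, so wild-type paraxial array 1 stood apart, within the range of the neural tube arrays (-0.19 to 0.94). Their part in the basement membrane and fibril-associated shifts was not tested. The shares of probes well above background were 77.4% and 73.5% in wild-type and 71.5% and 73.1% in mutant paraxial arrays.

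**Figure D5:**
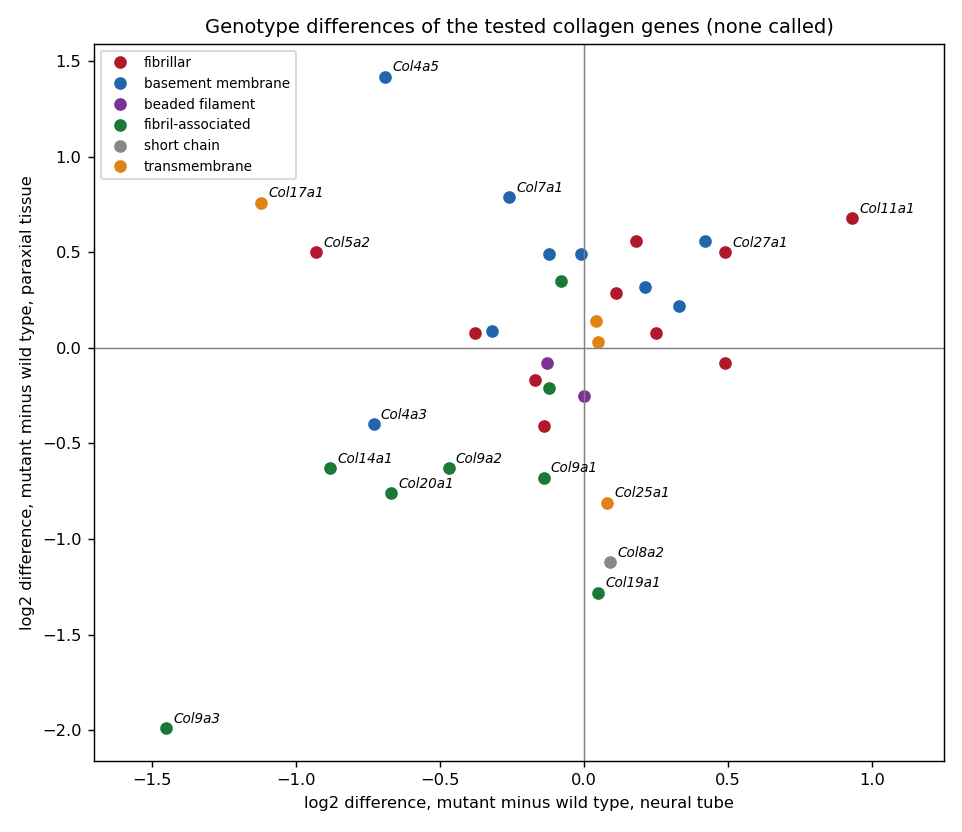
Log2 difference between mutant and wild type in neural tube (horizontal axis) and paraxial tissue (vertical axis) for the 34 tested collagen genes, coloured by class, with names where a difference exceeds about 0.6 and for Col27a1 and Col5a2. Fibril-associated genes lie mostly below 0 on the vertical axis and basement membrane genes above it, and no difference passed the test. Points of Col4a5, Col9a3, Col11a1, Col14a1, Col17a1, Col19a1 and Col24a1 rest in part on readings not well above background.

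The test of whether the tissue difference depended on genotype called 0 of 34 members and 0% of all genes. At an unadjusted p under 0.05 there were 5 members and 1495 of all genes. The 5 were Col5a2, Col17a1 at -1.89 ± 0.46 (limma adjusted p = 0.772), Col19a1 at 1.33 ± 0.38 (adjusted p = 0.850), Col4a5 at -2.11 ± 0.79 (adjusted p = 0.956) and Col7a1 at -1.05 ± 0.40 (adjusted p = 0.957). In 3 members (Col17a1, Col4a3 and Col4a6) the tissue difference had opposite signs in both wild-type and both mutant embryos, and 8.29% of all genes did so. In mutants Col19a1 was at least 1.40-fold lower in neural tube, where it was not well above background (adjusted p = 0.168), than in paraxial tissue. Col17a1 was not well above background on any mutant array, so its mutant readings have no order and its place among these 3 and 5 members rests on them. The size of the Col19a1 interaction also rests in part on dim signal.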

How the data were processed

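Laser-captured tissue of 4 embryos was measured on 8 1-colour arrays (Cy5), all on 1 slide and from 1 scan. Per the submitters' processing notes and the file headers, signals were extracted with Feature Extraction 11.0.1.1, and the deposited intensity values (processed red signal) are background-subtracted and detrended on a linear scale. The authors' deposited value table held the same intensity values to within 0.497%. Probe positions follow the build in the files' annotation (mm9), and gene names were brought up to date through RefSeq where an accession (26045 probes) or symbol (3200) matched, except for the members, which keep the files' names. Control spots were left out, spots of a probe were averaged, and 55664 probes remained. No probe was saturated.

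Signals were divided by the 75th percentile of their array and taken to log2. A probe was kept where both arrays of 1 or more groups read well above background (42752), and the brightest kept probe stood for its gene (28939 genes tested, 7939 of them with several). limma 3.58.1 in R 4.3.3 fitted 4 group means with the embryo as a random block (correlation 0.603), since the labels give both tissues the same embryo. The deviations of an embryo's arrays from their group means correlated at 0.562 in wild type and 0.607 in mutants. Equal numbers were not taken to pair wild-type with mutant embryos. Empirical Bayes moderation and Benjamini-Hochberg adjustment over all genes tested followed, at 0.05. "At least" folds set the bright group's mean against the higher of the dim probe's own signal and the lowest signal well above background. They hold for the 75th-percentile scaling and can be smaller under another scaling or background correction. The fit was tested on simulated data.

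The collagen genes and the gene and marker lists were chosen with earlier results of these data known. Every member is accounted for. Full statistics go, per contrast and collagen class, to at most the 3 genes with the smallest unadjusted p in each direction, and of each other list at most the 4 genes with the smallest p are named. Alternatives varied scaling, background correction (normexp, offset 50), filter, probe choice, block, moderation and arrays left out. Col26a1, Col6a4 and Col6a5 carry other names in the files and were not counted as members.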

Additional observations from a re-analysis of the deposited data

Results flagged for a closer look

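Of the collagen genes, 4 stood out because the measured difference under 1 contrast took opposite directions in the groups of another, and for none did the test of that difference pass over all genes. For Col5a2 the tissue difference was more negative in mutants than in wild type by 1.42 ± 0.28 on the log2 scale, so the interaction was -1.42 (limma, unadjusted p = 0.00149, adjusted p = 0.642), with all neural tube readings lower and all paraxial readings higher in mutants. Over the other scalings and background correction the Col5a2 interaction ran from -1.43 to -0.66. For Col17a1 the interaction was -1.89 ± 0.46 (unadjusted p = 0.00464, adjusted p = 0.772), with tissue differences of 0.52 and 1.26 in the wild-type embryos. No mutant array read Col17a1 well above background, so its mutant readings have no order and show no opposite direction. For Col4a6 it was -0.61 ± 0.31 (adjusted p = 0.957), with 0.42 and 0.02 in wild type and -0.63 and -0.14 in mutants. For Col4a3 it was -0.32 ± 0.32 (adjusted p = 0.969), with 0.13 and 0.16 in wild type and -0.25 and -0.11 in mutants. Over the other scalings and background correction the wild-type tissue difference of Col4a3 was as low as -0.04, and normexp background correction put that of Col17a1 at -0.09, so neither wild-type sign held throughout. Tissue differences of opposite sign in the genotypes were found in 8.29% of all genes, and opposite non-overlapping genotype shifts in 1.71%.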

How the results depend on the processing

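No collagen gene was called between genotypes or in the interaction under any setting fitted, and leaving out arrays or embryos gave 0 to 0 calls. The tissue counts depended on the replicate block and on the arrays included. Without the block 0 were called within wild type, 0 within mutants and 10 on the mean, and with the embryo as a fixed block 1 within wild type and 3 within mutants, against 10, 13 and 20 with the embryo as a random block. A fixed embryo block leaves no genotype contrast to fit. Without a filter on dim probes 8 were called within mutants. Leaving out an array or an embryo gave 0 to 10 calls within wild type, 0 to 17 within mutants and 10 to 21 on the mean, and the medians ran from -1.20 to -0.31, from -1.13 to -0.75 and from -0.97 to -0.60. With an array left out its group rests on 1 array, assumed to vary like the other groups. With an embryo left out the correlation of all arrays (0.603) was kept. The other processing alternatives kept the counts within 1.5 times.

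Counts over all genes moved more. Within wild type 713 genes were called, against 1508 with normexp background correction, 1089 with trended robust moderation, 417 with slide row as a block, 362 without a filter, 51 with a fixed embryo block and 4 without a block. Within mutants 1688 were called, against 1025, 610, 211 and 0 under the last 4 of these. On the mean 3456 were called, against 2297 without a filter, 1973 with a fixed embryo block and 593 without a block. Normexp moved the share of calls higher in neural tube from 49.7% to 39.4%, and median scaling put the median paraxial genotype difference of all genes at 0.124 in place of 0.031.

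For single collagen genes with an unadjusted p under 0.05, changes of processing left 759 comparisons of a value with its alternative on the same side of the threshold, ended 87 calls, added 11 and turned 1 sign. That was Col17a1 in wild type, at 0.89, which normexp put at -0.09. Left-out arrays ended 210 calls and turned no sign. Dim signal limits Col4a5, Col9a3, Col11a1, Col14a1, Col17a1, Col19a1 and Col24a1, and 2 embryos per genotype limit every test.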
